A study of Mus musculus with 4 samples.

Results

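Cdx1, Cdx2 and Cdx4 are the 3 caudal-type homeobox genes of the mouse, and their chromatin was examined in mouse embryonic stem cells with and without Hox function. For each gene, every listed ATAC-seq peak that overlapped the gene body or the 30 kb on either side was taken, by position alone. Merged over the libraries, these peaks formed 42 of the 208211 regions of the series, with 18 regions at Cdx1, 15 at Cdx2 and 9 at Cdx4. ATAC-seq uses a transposase to insert sequencing adapters into accessible DNA, so a peak marks open chromatin.

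There were 2 libraries of wt cells and 2 of cells with the genotype Hox-/-, whose sample names carry the letters BADC. Cells of both genotypes were grown in 2i and LIF medium with 10% serum, 100 ng/ml leukaemia inhibitory factor, 3 µM of the GSK-3 inhibitor CHIR99021 and 1 µM of the MEK inhibitor PD0325901. Inhibition of GSK-3 activates the canonical WNT pathway, so all libraries come from cells in which that pathway is stimulated. The labels do not say whether the 2 libraries of a genotype came from separate cultures or clones, and p-values then measure only the spread between these libraries.

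CDX proteins are transcription factors that bind AT-rich sites close to those of posterior HOX proteins. In the embryo they are switched on in the posterior primitive streak under WNT, FGF and retinoic acid signals, act upstream of Hox genes, and support growth of the trunk and tail. Cdx2 has an earlier role in the trophectoderm, the outer layer of the blastocyst, where its expression and that of Pou5f1 exclude each other, and Cdx1 and Cdx2 are kept on in the adult intestine.

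Numbers in parallel are given throughout for replicate 1 and then replicate 2. The wt lists had 213705 and 216795 peaks, and the Hox-/- lists 191704 and 200214. Read depth is not given. A relative depth, from the low end of the background under the peaks, was lowest for Hox-/- replicate 1, at 0.639 of the highest, and lay between 0.941 and 1.00 for the other libraries. The Hox clusters checked the labels, with 40 to 59 peaks per cluster in the wt libraries and 0 to 5 in the Hox-/- libraries. Starts of embryonic stem cell markers had a peak in all 4 libraries for 10 of 10 genes, and 9 of them were among the 50000 strongest peaks of every library. Markers of other cell types were open as well, for 6 of 6 trophoblast genes, 4 of 6 primitive endoderm genes and 4 of 6 fibroblast genes in all 4 libraries, with 3, 0 and 1 of them among the 50000 strongest of every library. Over all 21631 protein-coding genes, 69.2% had a start peak in all 4 libraries, 26.4% had none in any, and 50.0% were among the 50000 strongest of every library. Their part in the results below was not tested.

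Strength is given as the rank of a peak within its own library, in order of the −log10 p that the authors' peak caller gave, with 1 the strongest. Where several peaks of a library fell in a region, the best rank was used. The log2 rank shift of a region is the mean log2 rank in wt minus that in Hox-/-, so a value above 0 means that the region stood higher in the Hox-/- lists. Over the 122787 regions called in all 4 libraries, the median shift was 0.02, and the middle 90% lay between −0.55 and 0.55. Dividing each rank by the length of its list lowered every shift alike, which took this genome-wide median to −0.12, the share of regions higher in both Hox-/- libraries from 21.5% to 11.8%, and the share lower from 19.6% to 31.3%. With 2 libraries against 2, an exact permutation test cannot give a two-sided p below 0.33, so none of the differences here can pass a threshold of 0.05.

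At the start of Cdx2 and of Cdx4 a region was called in all 4 libraries, and both promoters are shown because these regions cover them. The sequences are from the RefSeq table of GRCm38.p6, hold the 250 bases before the start and the first 50 bases from it, and are written 5′ to 3′ on the strand of the gene. That of Cdx2 is chr5:147307200-147307499 on the minus strand, and that of Cdx4 is chrX:103321148-103321447 on the plus strand. Capitals mark the octamer ATGCAAAT, the letters that POU family factors such as POU5F1 recognise.
Cdx2: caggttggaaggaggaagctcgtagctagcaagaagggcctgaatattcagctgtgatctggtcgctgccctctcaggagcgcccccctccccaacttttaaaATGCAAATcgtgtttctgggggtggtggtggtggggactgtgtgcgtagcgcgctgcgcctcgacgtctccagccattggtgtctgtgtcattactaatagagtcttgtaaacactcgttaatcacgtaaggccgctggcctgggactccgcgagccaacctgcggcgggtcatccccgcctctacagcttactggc
Cdx4: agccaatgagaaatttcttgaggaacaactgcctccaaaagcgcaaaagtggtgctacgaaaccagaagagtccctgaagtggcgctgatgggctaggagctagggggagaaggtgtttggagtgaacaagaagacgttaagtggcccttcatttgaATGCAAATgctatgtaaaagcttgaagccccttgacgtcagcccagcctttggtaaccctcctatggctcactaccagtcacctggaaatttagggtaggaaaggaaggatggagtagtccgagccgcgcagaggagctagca

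The octamer occurred 1 time in each promoter, beginning 147 bases before the start of Cdx2 and 93 bases before that of Cdx4. It was present on either strand in 1.74% of the 32851 promoters of the table. Another 6 motifs were searched on both strands, and none of them was in these 2 windows: TTTAT (the core of CDX and posterior HOX sites, in 40.0% of promoters), CTTTGAT and CTTTGAA (TCF/LEF sites, in 3.73% and 5.14%), AGGTCA (a core of nuclear receptor sites, in 16.3%), GGGCGG (the GC box, in 35.7%) and TATAAA (the TATA box, in 13.6%). These are matches of letters and not shown binding sites, and the absence of a match says only that these letters are not in these windows. The Cdx2 promoter had 18 CpG dinucleotides and a GC content of 57.3%, and that of Cdx4 had 8 and 50.3%, against medians of 7 and 52.7% over the table.

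**Figure D1:**
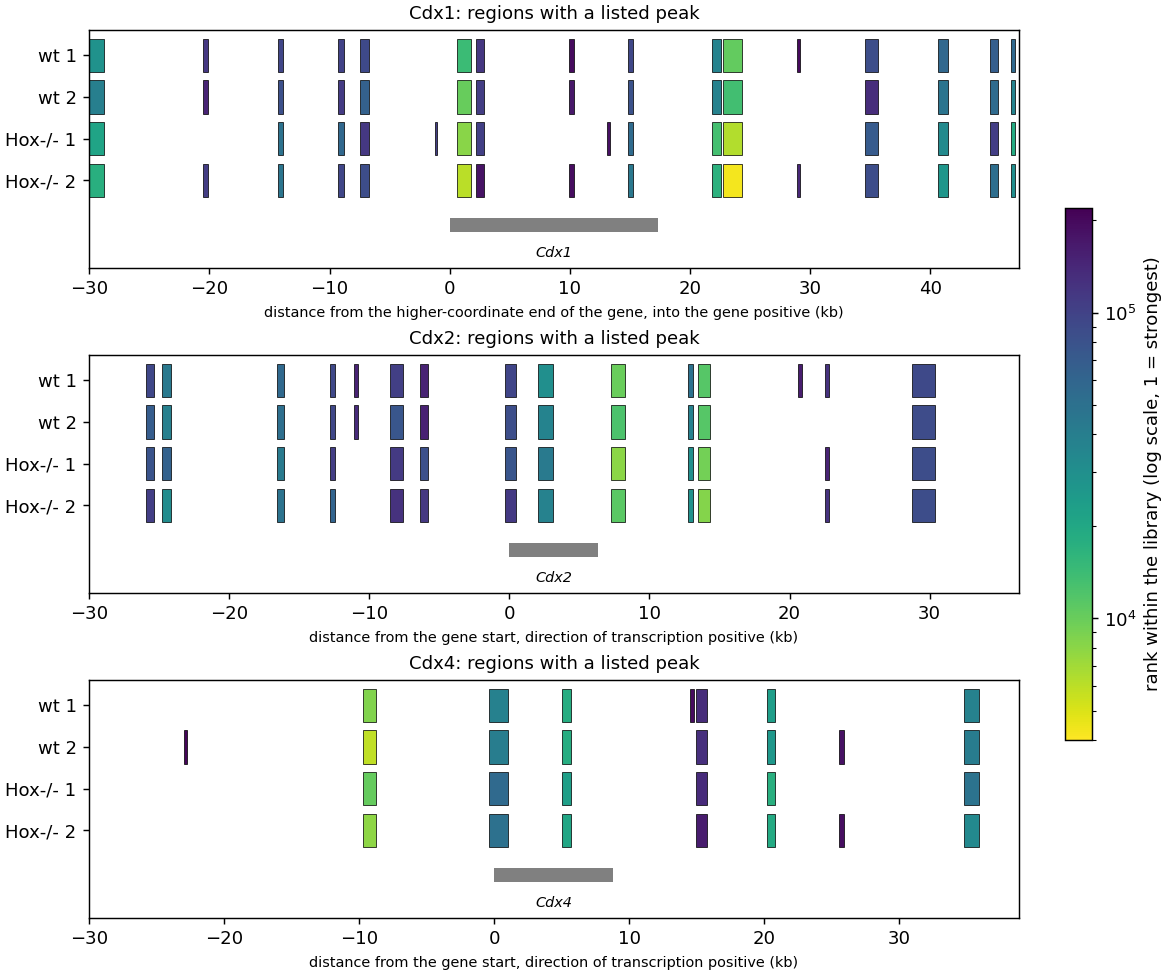
Regions with a listed peak in the windows of Cdx1, Cdx2 and Cdx4, by library (rows), against distance in kb from the gene start (for Cdx1, from the end with the higher coordinate). Boxes show the merged region where that library lists a peak, colour gives its rank on a log scale, and grey bars are gene bodies; most regions recur in all 4 libraries, and the strongest at Cdx2 and Cdx4 do not lie at the start.

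Cdx2 lies on chromosome 5 from 147300900 to 147307249 and is read towards lower coordinates. Its start was only weakly open, while its strongest regions lay past the end of the gene. The start region, 147306765 to 147307579, ranked 96748 and 84719 in wt and 76085 and 113528 in Hox-/-, with summits 77 to 113 bp past the start base. Ranks of the genotypes overlapped, and the shift was −0.04. The authors' fold over background there was 3.36 and 3.92 in wt and 3.96 and 3.12 in Hox-/-.

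A pair of regions led the Cdx2 window, each of them first in 2 libraries. One, at 147299023 to 147300002, was centred 7.74 kb from the start, beyond the last base of the gene. It ranked 9988 and 12437 in wt and 8019 and 11152 in Hox-/-, so the ranks of the genotypes overlapped, and its folds were 11.7 to 13.1. The other, inside the long non-coding RNA gene Gm35112 at 147292936 to 147293789, ranked 11489 and 11550 in wt and 9390 and 8443 in Hox-/-. Both Hox-/- libraries stood above both wt libraries there, by a shift of 0.37, but the ranks by fold, 12466 and 13692 in wt and 13691 and 11539 in Hox-/-, overlapped. The neighbouring region of Gm35112, at 147294128 to 147294510, ranked 49540 and 38564 in wt and 30240 and 29478 in Hox-/-, a shift of 0.55 in the same direction.

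Inside the gene body of Cdx2 a second region was called, at 147304110 to 147305219, centred 2.58 kb past the start. It ranked 30255 and 36622 in wt and 42686 and 37002 in Hox-/-, so wt stood above Hox-/- with a shift of −0.26, although wt replicate 2 and Hox-/- replicate 2 lay close together and the ranks by fold, 59077 and 65534 in wt and 83276 and 56363 in Hox-/-, overlapped. The table gives no exons, so it is not known from these files whether the region is exonic or intronic. The region at 147318050 to 147318352, within Urad, which encodes an enzyme of uric acid breakdown, was listed in both wt libraries at ranks 149946 and 136945 and in neither Hox-/- library. It was the only region of the 42 with a peak in both libraries of a genotype and in neither of the other, where 3.83% of all regions had this pattern for wt and 1.23% for Hox-/-.

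Upstream of Cdx2, the region at 147313079 to 147313655 had the highest shift of the window. It ranked 150067 and 151407 in wt and 83134 and 114579 in Hox-/-, a shift of 0.63 with no overlap of the genotypes. In the opposite direction, the region at 147314810 to 147315755, at the lower end of Urad, ranked 105182 and 75087 in wt and 110909 and 125062 in Hox-/-, a shift of −0.41. These 2 regions lie next to each other in the list of regions and moved in different directions.

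Of the 12 regions called in all 4 libraries at Cdx2, both Hox-/- libraries ranked above both wt libraries in 5 (41.7%) and below them in 2 (16.7%), against 21.5% and 19.6% of regions genome-wide. The median shift was 0.13 (two-sided exact permutation p = 0.33, the least this design can give). With the rank divided by the length of the list, it was −0.01 where the genome-wide median was −0.12, with 3 regions higher and 3 lower (25% each, against 11.8% and 31.3% genome-wide), so its place relative to the genome was kept. Without wt replicate 2 the median was 0.07. Leaving out either Hox-/- library gave 7 higher regions in place of 5 and 4 lower ones in place of 2. Such counts are easier to reach with fewer libraries, and no genome-wide share was computed for them. The number of peaks was 24 and 21 in wt and 21 and 19 in Hox-/-, with means of 22.5 ± 2.12 (SD, n = 2) and 20 ± 1.41 (SD, n = 2), a difference of −2.5 (exact permutation test, p = 0.67). These numbers count lines of the lists, and with overlapping lines merged the difference was −1.0. It was −4.0 without wt replicate 2 and −1.0 without wt replicate 1.

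Cdx4 lies on chromosome X from 103321398 to 103330224 and is read towards higher coordinates. Its start was more open than that of Cdx2 and stood lower in both Hox-/- lists. The start region, 103320978 to 103322450, ranked 38452 and 40850 in wt and 56269 and 49945 in Hox-/-. The genotypes did not overlap, and the shift was −0.42. Among 14977 protein-coding genes with a peak at the start in all 4 libraries, 17.2% ranked lower in both Hox-/- libraries and 19.9% higher, so such a pattern is common. Summits lay 20 to 50 bp before the start base, and the folds were 10.7 and 10.1 in wt and 7.70 and 9.22 in Hox-/-.

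The Cdx4 body held a further region at 103326426 to 103327089, centred 5.36 kb past the start. It ranked 18270 and 18310 in wt and 23282 and 20485 in Hox-/-, and was also lower in both Hox-/- libraries, with a shift of −0.26. By fold the ranks there, 7828 and 9298 in wt and 12848 and 8811 in Hox-/-, overlapped. The strongest region of the window by −log10 p lay upstream, at 103311651 to 103312649, centred 9.25 kb before the start and between genes. There the ranks were 8602 and 5872 in wt and 10351 and 7883 in Hox-/-, and the genotypes overlapped (shift −0.35). Its ranks by fold were 18659 and 13743 in wt and 19340 and 16737 in Hox-/-. By fold it stood behind the region at 103326426 to 103327089 and the downstream region at 103341580 to 103342168 in every library.

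Downstream of Cdx4 the direction was the opposite at a region centred 20.5 kb past the start, 103341580 to 103342168. It ranked 23468 and 26062 in wt and 17499 and 19259 in Hox-/-, a shift of 0.43 with no overlap. A weak region over the pseudogene Gm9516, at 103336354 to 103337169, ranked 134349 and 127867 in wt and 136220 and 161431 in Hox-/- (shift −0.18), so both Hox-/- libraries were lower. The region at the start of Chic1, the next protein-coding gene, ranked 38080 and 41421 in wt and 48039 and 33183 in Hox-/-, and the genotypes overlapped.

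Of the 6 regions called in all 4 libraries at Cdx4, 3 (50.0%) ranked lower in both Hox-/- libraries and 1 (16.7%) higher, against 19.6% and 21.5% of regions genome-wide. The median shift was −0.22 (two-sided exact permutation p = 0.33, the least this design can give), while the 75 regions from 30 kb to 1 Mb beyond the gene had a median of 0.08 and those of chromosome X one of 0.07. With the rank divided by the length of the list, the median at Cdx4 was −0.35, and those of its surroundings and of chromosome X moved alike to −0.06 and −0.07. With windows of 100 kb the undivided median at Cdx4 was 0.00, so the lower direction was not kept. Without wt replicate 2 the undivided median at Cdx4 was −0.11, without Hox-/- replicate 2 there were 5 lower regions, and without Hox-/- replicate 1 there were 2 higher ones. Such counts are easier to reach with fewer libraries, and no genome-wide share was computed for them. The window held 11 and 14 peaks in wt and 12 and 10 in Hox-/-, with means of 12.5 ± 2.12 (SD, n = 2) and 11 ± 1.41 (SD, n = 2), a difference of −1.5 (exact permutation test, p = 0.67). It was −0.5 with overlapping lines merged, 0.0 without wt replicate 2 and 0.5 among the 100000 strongest peaks of each library, so its direction was not stable.

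**Figure D2:**
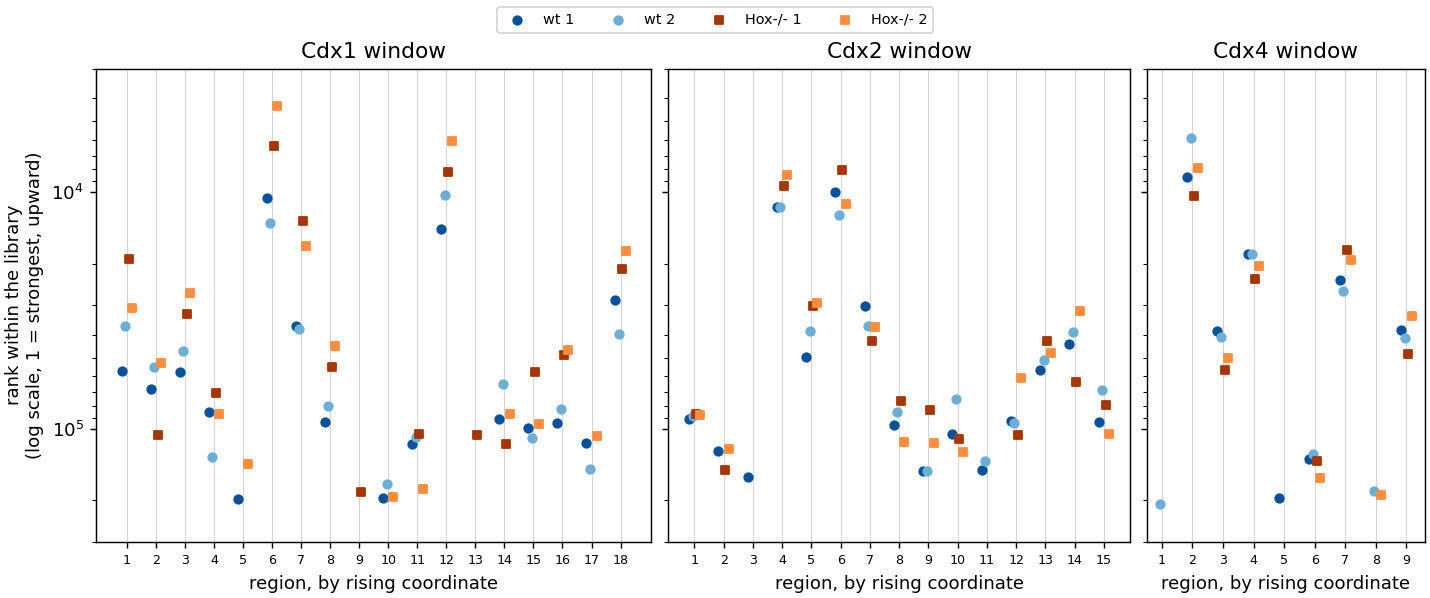
Rank within the library (log scale, upward is stronger) of each region in the 3 windows, numbered by rising coordinate; circles are wt and squares Hox-/- libraries, and a missing symbol means that no peak is listed. At Cdx1 the squares stand above the circles in 9 of 13 regions called in all 4 libraries, at Cdx2 in 5 of 12 and at Cdx4 in 1 of 6. They stand below the circles in 0, 2 and 3 of these regions. Genome-wide, 21.5% of regions ranked higher and 19.6% lower in both Hox-/- libraries.

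Cdx1 lies on chromosome 18 from 61018862 to 61036199, between Slc6a7, which encodes a proline transporter, and Pdgfrb, the gene of a receptor for platelet-derived growth factor. The tables give no strand for Cdx1, so distances are counted from its end with the higher coordinate, into the gene. Regions here ranked higher in Hox-/- than in wt over most of the window. The main region of the gene body, 61034388 to 61035567, ranked 14274 and 10218 in wt and 8196 and 6059 in Hox-/-. All Hox-/- ranks were better than all wt ranks, with a shift of 0.78, and the summits lay 1057 to 1067 bp from the gene end, within 10 bp of each other. The region also lies within 1 kb of an end of Gm52351, a predicted gene whose body overlaps that end of Cdx1, and for which it is the start peak by the same rule.

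The direction was the same at both sides of the gene. The region with the best rank of the window in 3 of 4 libraries, 61011853 to 61013493 in Slc6a7, ranked 10535 and 13518 in wt and 6362 and 4325 in Hox-/-, a shift of 1.19. Beside it, the region at 61013624 to 61014361 ranked 36870 and 37852 in wt and 13198 and 16936 in Hox-/-, which gave the highest shift of the window, 1.32. Within the Cdx1 body, 61020936 to 61021337 ranked 93972 and 80106 in wt and 54906 and 44484 in Hox-/- (shift 0.81). In Pdgfrb, the region at 61064968 to 61066224 ranked 28573 and 39534 in wt and 21163 and 17642 in Hox-/- (shift 0.80), and that at 61050065 to 61050478 ranked 94628 and 82807 in wt and 48493 and 46617 in Hox-/- (shift 0.90).

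Some regions of the Cdx1 window did not follow. The region at 61033313 to 61033970, beside the main one in the gene body, ranked 116192 and 107774 in wt and 105028 and 180124 in Hox-/-, and that at 61042907 to 61043677 in Gm52351 ranked 90680 and 64649 in wt and 115460 and 86773 in Hox-/-. Both had shifts below 0 (−0.30 and −0.39) with overlapping genotypes. So did the region at 60990594 to 60991202, between genes, with ranks of 67969 and 54708 in wt and 106450 and 52456 in Hox-/- (shift −0.29). A weak region at 61025881 to 61026273 in the Cdx1 body was listed in wt at ranks 195721 and 170549 and in Hox-/- replicate 2 at 193772, but not in Hox-/- replicate 1, the library with the lowest relative depth. Hox-/- replicate 1 alone listed 61022898 to 61023097 at rank 184218 and 61037239 to 61037458 at rank 106482.

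Of the 13 regions called in all 4 libraries at Cdx1, 9 (69.2%) ranked higher in both Hox-/- libraries than in both wt libraries and 0 ranked lower, where the genome-wide shares were 21.5% and 19.6%. The median shift was 0.80 (two-sided exact permutation p = 0.33, the least this design can give). Without Hox-/- replicate 1 it was 0.43, over 16 regions of which 12 ranked higher and 1 lower. Lower regions also numbered 1 without wt replicate 1 and 2 without Hox-/- replicate 2. With a library left out, regions stand apart more easily by construction, and no genome-wide share was computed for these counts. The rank divided by list length gave a median of 0.66, with 8 regions higher and 2 lower, where the genome-wide shares were 11.8% and 31.3%. Peak numbers did not differ in the same way: there were 24 and 25 in wt and 23 and 24 in Hox-/-, with means of 24.5 ± 0.707 (SD, n = 2) and 23.5 ± 0.707 (SD, n = 2), a difference of −1.0 (exact permutation test, p = 0.67).

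The surroundings of Cdx1 were shifted as well. From 30 kb to 1 Mb beyond the gene, 118 of 189 regions (62.4%) ranked higher in both Hox-/- libraries, with a median shift of 0.37. The whole of chromosome 18 had a median of 0.05. Cdx1 was already known from earlier results of these data to lie in a stretch of higher ranks in Hox-/-, so these values describe that stretch and are no separate support. At the same distance from Cdx2 50 of 203 regions (24.6%) ranked higher, with a median of 0.05. Whether the shift of the Cdx1 window exceeds that of its surroundings was not tested.

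The shift at Cdx1 was larger by −log10 p than by fold. Ranked by fold over background, the Cdx1 window had a median shift of 0.26, with 5 of 13 regions higher (38.5%) and 2 lower, against 22.9% and 17.9% of regions genome-wide on that scale. Regions from 30 kb to 1 Mb around Cdx1 then had a median of 0.06, and 29.1% of them ranked higher. At the main region of the Cdx1 body the folds were 7.86 and 9.32 in wt and 8.36 and 9.24 in Hox-/-, and the ranks by fold, 47000 and 36185 in wt and 39570 and 31946 in Hox-/-, overlapped. At the region in Slc6a7 with the best ranks, the folds were 8.72 and 8.57 in wt and 8.69 and 9.07 in Hox-/-, and the ranks by fold, 39183 and 42362 in wt and 36737 and 33281 in Hox-/-, were still higher in both Hox-/- libraries. In Pdgfrb the region at 61064968 to 61066224 overlapped between genotypes by fold, and that at 61050065 to 61050478 stayed higher in Hox-/-. The region at 61020936 to 61021337 in Cdx1 also stayed higher in Hox-/- by fold, with ranks of 80693 and 63505 in wt and 48871 and 44768 in Hox-/-. At Cdx2 and Cdx4 the medians by fold, 0.09 and −0.21, were close to those by −log10 p, but fewer regions stood apart. By fold, 3 regions ranked higher (25%) and 1 lower at Cdx2, and 1 higher and 2 lower at Cdx4.

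**Figure D3:**
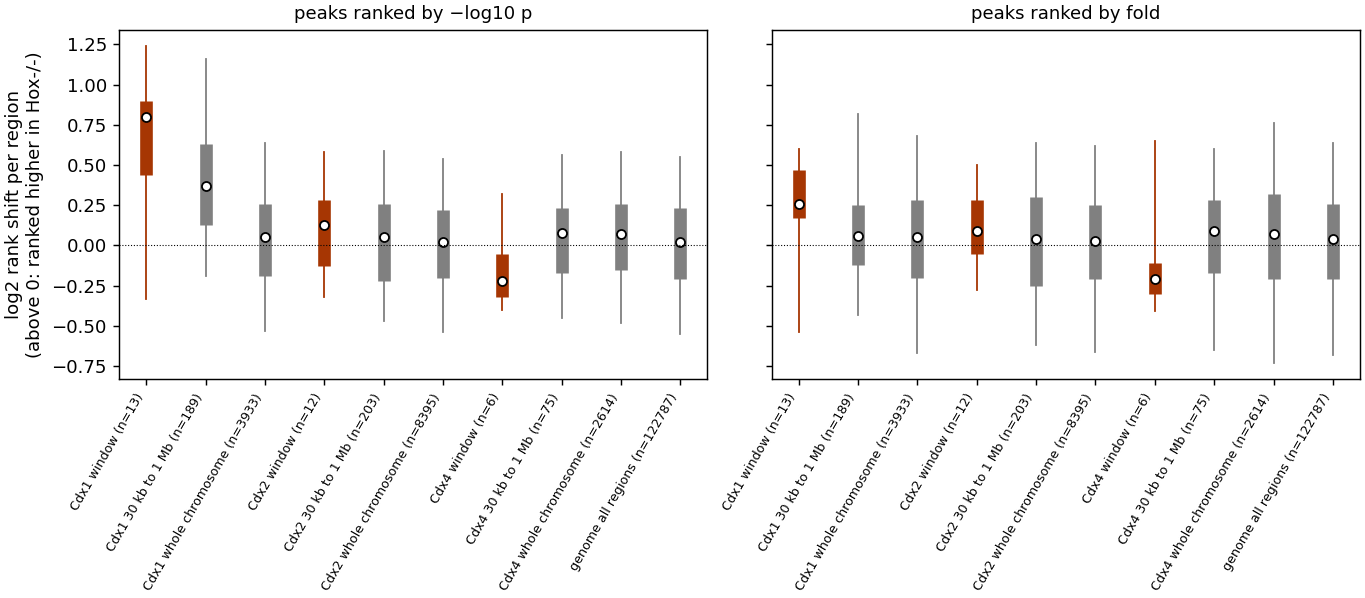
Log2 rank shift per region in the 3 windows (brown), from 30 kb to 1 Mb around each gene, on its whole chromosome and over the genome (grey), with peaks ranked by −log10 p (left) and by fold (right); dots are medians, thick bars the middle 50% and thin lines the middle 90% of n regions. The Cdx1 window stands at 0.80 on the left and 0.26 on the right, and its surroundings at 0.37 and 0.06.

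Shifts of the 3 genes were then set against each other. The median of Cdx1 exceeded that of Cdx2 by 0.67 and that of Cdx4 by 1.02, and the median of Cdx2 exceeded that of Cdx4 by 0.34. Each of these 3 differences had a two-sided exact permutation p of 0.33, raw and after Benjamini-Hochberg adjustment over the 3, and the design allows none smaller. Ranked by fold the differences were 0.18, 0.47 and 0.29, and without Hox-/- replicate 1 they were 0.32, 0.59 and 0.26. Without wt replicate 2, Cdx2 exceeded Cdx4 by 0.17. Among 15295 protein-coding genes with at least 5 regions called in all 4 libraries in the body and 30 kb on either side, 99.9% had a median shift below that of Cdx1, 83.6% below that of Cdx2 and 3.92% below that of Cdx4. These positions are for ranks by −log10 p in all 4 libraries and were not computed by fold. Cdx1 was known beforehand to lie in a stretch ranked higher in Hox-/-. Its position among genes and its gaps to Cdx2 and Cdx4 therefore describe that stretch as well and are no separate support.

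At the gene starts the order was the same in every library, with Cdx1 before Cdx4 and Cdx4 before Cdx2, when Cdx1 is taken at its end with the higher coordinate. The Cdx1 ranks ran from 6059 to 14274, those of Cdx4 from 38452 to 56269 and those of Cdx2 from 76085 to 113528, with no overlap. By fold, Cdx1 (ranks 31946 to 47000) and Cdx4 (25685 to 45614) overlapped, while Cdx2 stayed behind both (118407 to 148296). Of the genes with a peak at the start in all 4 libraries, 32.5% had a better mean rank than Cdx1, 74.7% a better one than Cdx4 and 90.7% a better one than Cdx2.

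The genes whose starts had the 4 log2 ranks nearest to those of each Cdx gene were named by Euclidean distance over the 4 libraries, among 14968 genes. For Cdx1 these included Gm21976 and Arrdc1 (distances 0.122 and 0.288), for Cdx2 they included Oxct2b and Vwde (0.0938 and 0.147), and for Cdx4 they were Mapkapk3, Phactr1 and Nfat5 (0.0746, 0.128 and 0.133). The comparison is a description of likeness in rank only.

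Positions of the regions were much the same in both genotypes. Every region called in both wt libraries at Cdx1 (15 of 15, exact 95% Clopper-Pearson interval 78.2% to 100%) and at Cdx4 (6 of 6, 54.1% to 100%) overlapped a peak of a Hox-/- library, as did 12 of 13 at Cdx2 (92.3%, 64.0% to 99.8%), and 94.6% of such regions did genome-wide. In the opposite direction all 13, 13 and 6 regions called in both Hox-/- libraries at Cdx1, Cdx2 and Cdx4 overlapped a wt peak, as did 98.1% of such regions genome-wide. Intervals cover counting error only. Of the 11 regions not called in all 4 libraries, 5 were in 1 library only, 3 in 2 libraries and 3 in 3 libraries.

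Bases covered by peaks were largely shared between libraries. The Jaccard index (shared bases over bases covered by either library) at Cdx1 was 0.808 between wt replicates, 0.690 between Hox-/- replicates and 0.707 to 0.803 across genotypes. At Cdx2 these values were 0.819, 0.824 and 0.757 to 0.831, and at Cdx4 they were 0.753, 0.778 and 0.741 to 0.839. Values across genotypes fell below both replicate values for 3 of 4 pairs at Cdx2, 1 of 4 at Cdx4 and 0 of 4 at Cdx1, and these differences were not tested. Summits of regions called in all 4 libraries differed between any 2 libraries by a median of 3.5 to 20 bp in the 3 windows, against 11 to 13 bp genome-wide.

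Peak intervals in the windows were at least about as wide as in the lists as a whole. The median interval was 406 to 616 bp at Cdx1, 409 to 577 bp at Cdx2 and 580 to 726 bp at Cdx4, against 398 to 414 bp over all intervals of a library. The start region of Cdx2 was covered over 799 and 802 bp in wt and 660 and 761 bp in Hox-/-, and that of Cdx4 over 1198 and 1312 bp in wt and 1084 and 1127 bp in Hox-/-. Both were wider in both wt libraries, but the share of regions genome-wide with this order was not computed. Over all intervals the medians were also larger in wt, at 414 and 409 bp against 402 and 398 bp in Hox-/-. The main region of the Cdx1 body overlapped between genotypes, with 1170 and 961 bp in wt and 999 and 973 bp in Hox-/-. Peaks were dense at Cdx1 and Cdx2, with means of 3.10 and 3.20 peaks per 10 kb, more than around 94.4% and 95.5% of 21631 protein-coding genes (median 1.49). The density at Cdx4 was 1.71 per 10 kb, above 57.2% of genes.

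The 30 kb limit parted regions of unlike strength at Cdx2. Just inside it on the lower side, 22.4 kb from the gene, a region ranked 86550 to 90976 over the 4 libraries, and just outside, at 30.3 kb, one ranked 15066 to 19927. On the higher side the ranks were 68333 to 105557 inside (25.4 kb) and 41043 to 62125 outside (31.4 kb). At Cdx1 the ranks on the lower side were 19079 to 57037 inside (29.4 kb) and 119169 to 178568 outside (34.0 kb), and on the higher side 17642 to 39534 inside (28.8 kb) and 25865 to 51843 outside (32.0 kb). At Cdx4 the nearest region inside on the lower side (22.7 kb) was listed only in wt replicate 2, at rank 208125, and that outside (32.1 kb) ranked 97300 to 149524. On the higher side they ranked 33183 to 48039 inside (25.9 kb) and, in the 3 libraries that list it, 112084 to 120623 outside (41.0 kb).

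Genes around the Cdx genes and genes of their known network were then examined at their starts, where a gene counted as open in a library with a peak within 1 kb. The lists held 44 genes. Of these 1 gene, Tff3, which encodes an intestinal trefoil factor, was open in both wt libraries (ranks 190855 and 161910) and in neither Hox-/- library. The share of such genes among 21631 protein-coding genes was 0.458%, and 0.180% showed the reverse. No start was known for Tff3, which was taken at either gene end. With a −log10 q of at least 5 the count was 0, and with the 50000 strongest peaks the gene was Sp5 in place of Tff3.

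Cdx2 belongs to the ParaHox genes, sisters of the Hox clusters, and lies in a cluster with Gsx1 and Pdx1. The list held Gsx1, Gsx2, Pdx1 and Cdx2, and not the ParaHox genes Cdx1 and Cdx4, whose start ranks did not overlap between genotypes (above). Its 4 genes were open in all 4 libraries, and for 0 of them did the genotypes stand apart, beside 69.2% of all protein-coding genes open in all 4 libraries and 19.9% and 17.2% of gene starts ranked higher and lower in Hox-/-. Pdx1, a pancreatic regulator whose body reaches into the Cdx2 window, ranked 19927 and 15066 in wt and 17616 and 15475 in Hox-/-, and Gsx1, a neural regulator, ranked 42600 and 34952 in wt and 26484 and 37192 in Hox-/-. Both were stronger than Cdx2 in every library. Gsx2, on the same chromosome but far from the other ParaHox genes, was weak, with ranks of 150547 and 134784 in wt and 146950 and 132315 in Hox-/-.

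Trophectoderm genes, with which Cdx2 acts in the blastocyst, were open in all 4 libraries for 10 of 10 genes, beside 69.2% of all protein-coding genes. Both Hox-/- libraries ranked higher for 2 of them and lower for 2, with a median shift of 0.00, where 19.9% and 17.2% of all gene starts did so. Klf5, a zinc finger factor also used by stem cells, ranked 696 and 503 in wt and 334 and 374 in Hox-/-, and Tead4, the factor upstream of Cdx2 in the trophectoderm, ranked 23277 and 16079 in wt and 11875 and 15963 in Hox-/-. Krt8, a keratin of simple epithelia, ranked 24883 and 27577 in wt and 36955 and 53762 in Hox-/-, and Tfap2c ranked 71758 and 62789 in wt and 74412 and 92732 in Hox-/-. Gata3 and Elf5 overlapped between genotypes, with ranks of 2607 to 3366 and 37208 to 45178.

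Regulators of Cdx genes in the WNT, FGF and retinoic acid pathways were listed along with the stem cell factors Pou5f1 and Nanog, and 20 of 20 genes were open in all 4 libraries, as were 69.2% of all protein-coding genes. Of these 20 genes, 5, Pou5f1 among them, ranked higher and 4 lower in both Hox-/- libraries, with a median shift of 0.02, beside 19.9% and 17.2% of all gene starts. Tcf7l2, a nuclear partner of β-catenin, ranked 26193 and 30582 in wt and 21403 and 14760 in Hox-/- (shift 0.67). Pou5f1, which opposes Cdx2, ranked 11568 and 12950 in wt and 9551 and 9781 in Hox-/- (shift 0.34). Rarg, Aldh1a2 and Fgfr1 had shifts of 0.31, 0.21 and 0.22.

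Sp5, a WNT target gene, had the lowest shift of the 44 genes, −1.0, with ranks of 31766 and 22234 in wt and 53651 and 52458 in Hox-/-. T, the mesodermal factor brachyury, ranked 136981 and 106372 in wt and 146906 and 151294 in Hox-/- (shift −0.30), and Ctnnb1, which encodes β-catenin, ranked 60779 and 68451 in wt and 76569 and 81021 in Hox-/- (shift −0.29). Rarb was the fourth, by a narrow margin (shift −0.05). Axin2, another WNT target, and Lef1 overlapped between genotypes with shifts of 0.03 and 0.06, and so did Wnt3a (0.00) and Cyp26a1, which degrades retinoic acid (−0.09).

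Genes of the intestine, where CDX factors are active, mostly had no peak in all 4 libraries. Of 10 genes, 4 (Cdh17, Muc2, Sis and Hnf4a) had no listed peak at the start in any library, and Cdx1 itself was the only gene open in all 4. The shares over all protein-coding genes were 26.4% with no start peak in any library and 69.2% with one in all 4. Isx and Lct were each listed in 1 wt library only. Vil1, which encodes the brush border protein villin, was listed in 3 libraries at ranks from 162170 to 204251.

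**Figure D4:**
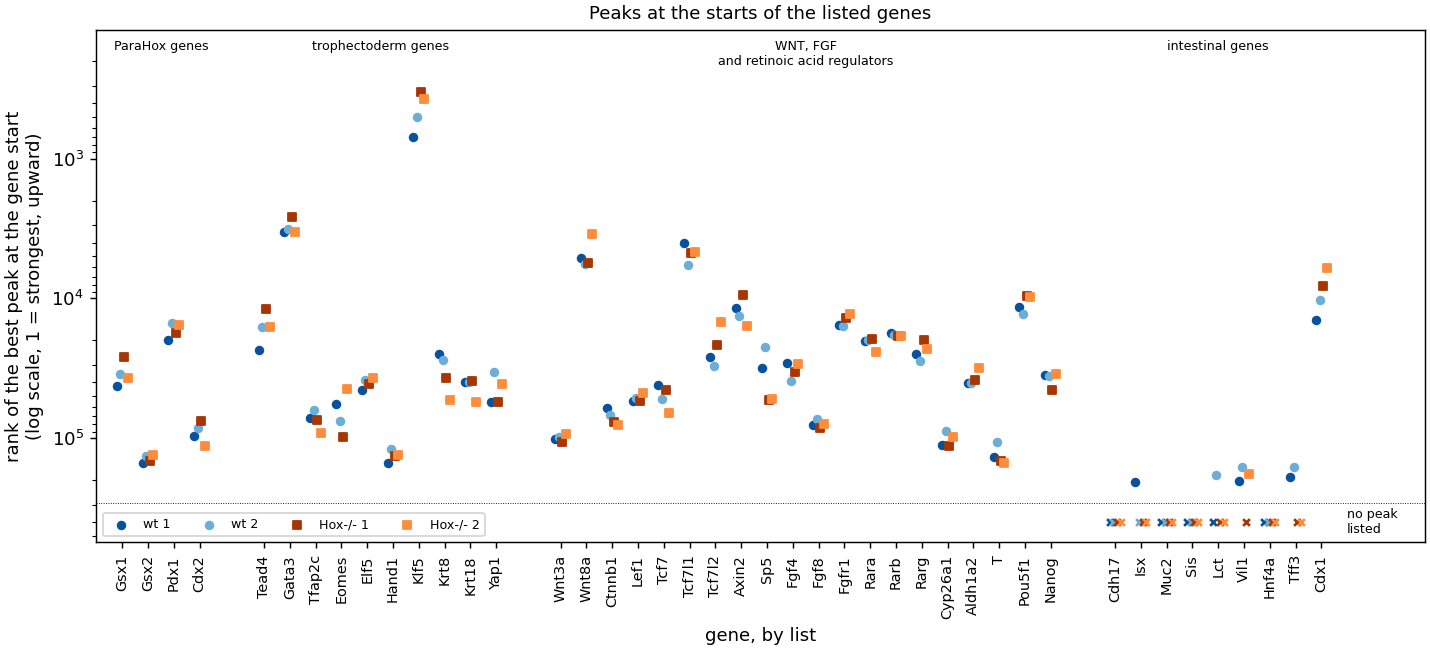
Rank of the best peak within 1 kb of the start of the listed genes named here (log scale, upward is stronger), by list; circles are wt and squares Hox-/- libraries, and crosses below the dotted line mark libraries with no listed peak. Cdx2 sits among the weaker ParaHox starts, and Cdx1 is the only intestinal gene with a peak in all 4 libraries.

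Other genes in the windows were described at their starts as well. In the Cdx1 window, Slc6a7 (shift 1.19) and Pdgfrb (ranks 99095 and 109366 in wt and 57466 and 95790 in Hox-/-, shift 0.49) ranked higher in both Hox-/- libraries. In the Cdx2 window, Flt3, the gene of a receptor of blood progenitors, ranked 105647 and 154859 in wt and 124889 and 54860 in Hox-/-, and the genotypes overlapped. Urad was listed at ranks 51338 in wt replicate 2 and 42702 in Hox-/- replicate 1 within 1 kb of its start. The same region, 147323358 to 147323864, was called in all 4 libraries (ranks 56446 in wt replicate 1 and 47739 in Hox-/- replicate 2), but the narrower peaks of those libraries, 335 and 336 bp against 474 and 501 bp, did not reach the 1 kb limit. Slc6a7, Pdgfrb and Cdx1 had no start in the tables and were taken at either gene end.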

How the data were processed

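The submitters' processing notes name the build mm10 and cutadapt 4.8, Bowtie2 2.5.0, Picard 2.18.2, bedtools 2.30.0, MACS2 2.2.9.1 and deepTools 3.5.4, without roles or order. Other steps, such as read shifting, are not given in the sources used here. The deposited lists, 1 per library, give each peak an interval, a fold (ratio) over local background, −log10 p, −log10 q (lowest 1.30) and a summit. Peaks were ordered or filtered by them inside their own list, and folds printed side by side are descriptions, with no test between lists. Relative depth was solved from fold and p under a Poisson model (pileups within 0.05 of a whole number in 100% of lines solved), at the 0.1% quantile of the background.

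Peaks were merged over libraries where they overlapped by at least 1 bp. Gene bodies and starts come from RefSeq tables of GRCm38.p6, the assembly of mm10. Promoter sequences matched 2 of 3 Cdx genes, and starts matched 33 of 44 listed genes, and the other 11 were taken at either end. Python 3.11.15, pandas 2.3.3 and scipy 1.17.1 were used, and the rank statistics were tested on simulated data.

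Libraries were grouped by genotype label. Regions in the windows, genes overlapping them, 4 gene lists and the 3 genes most alike could be named. A listed gene and 2 of the genes most alike are not reported here by name; counts include them. The members and lists were chosen with earlier results of these data known. Alternatives were stricter peaks, other windows, ranks, overlaps and left-out libraries.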

Additional observations from a re-analysis of the deposited data

How the results depend on the processing

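Of 91 alternative values for the planned results, 82 did not change sign, or lay within 1.5 times a count or within the interval of a share, 6 moved and 3 changed sign. The 82 include the values of the replicate block, which equal the main ones by construction. They include a Cdx4 difference in peak number of 0.0, which has no direction, with windows of 10 kb and without wt replicate 2. Also among them are differences in peak number with windows of 100 kb, −3.0 at Cdx1, −8.5 at Cdx2 and −6.5 at Cdx4. The sign changed for the Cdx4 shift with windows of 100 kb (0.00 after rounding), the Cdx4 peak number with the 100000 strongest peaks of each library (0.5) and the Cdx2 shift with rank divided by list length (−0.01). The last follows from the scaling, which moved the genome-wide median from 0.02 to −0.12 as well. The share of wt regions kept at Cdx2 was 100% with windows of 10 kb, and the listed genes open in 1 genotype only were 0 with a −log10 q of at least 5 and 2 with windows of 2.5 kb (Lct and Tff3). With the 50000 strongest peaks the count was again 1, but the gene was Sp5 in place of Tff3. Windows of 10 kb gave a Cdx2 shift of 0.24, and rank divided by list length a Cdx4 shift of −0.35. Windows of 100 kb gave gaps of 0.64 for Cdx1 over Cdx4 and 0.11 for Cdx2 over Cdx4, and windows of 10 kb one of 0.54 for the latter. The other causes were not tested.

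Counts of regions ranked apart and differences in shift between the genes were recomputed under alternatives chosen after seeing the data. This gave 69 values, of which 13, all of them counts, moved and 0 changed sign. Counts cannot change sign, and a difference was marked only by a change of sign. Dividing the rank by list length leaves the differences between genes unchanged by construction. Ranked by fold, the higher and lower regions were 5 and 2 at Cdx1 and 3 and 1 at Cdx2, and with rank divided by list length there were 2 lower regions at Cdx1 and 3 higher ones at Cdx2.

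Leaving out each library in turn, higher regions ran from 9 to 12 at Cdx1, 5 to 7 at Cdx2 and 1 to 2 at Cdx4, and lower ones from 0 to 2, 2 to 4 and 3 to 5. Fewer libraries make such counts easier to reach by construction. Listed genes open in 1 genotype only ran from 1 to 2, the shifts from 0.43 to 0.94 at Cdx1, 0.07 to 0.15 at Cdx2 and −0.31 to −0.11 at Cdx4, the gaps in shift from 0.32 to 0.88 (Cdx1 over Cdx2), 0.59 to 1.05 (Cdx1 over Cdx4) and 0.17 to 0.46 (Cdx2 over Cdx4), and differences in peak number from −1.5 to −0.5, −4.0 to −1.0 and −3.0 to 0.0. Shares kept ran from 86.7% to 100%, 86.7% to 92.3% and 85.7% to 100%.

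Replicate numbers did not pair the libraries, with a correlation of replicate differences of 0.00360 over 122787 regions. With the replicate block, only same-numbered libraries were compared. The shifts were 0.80, 0.13 and −0.22 and the differences in peak number −1.0, −2.5 and −1.5, the values without it. Averaging same-numbered differences gives these values by construction, so the block is no check on them. The lower depth of Hox-/- replicate 1 limits the reading of absent weak peaks.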
